A study of Rattus norvegicus with 6 samples.

Results

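The transcripts described here are markers of fetal liver and of preneoplastic liver foci: Afp, Gpc3, Ggt1, H19, Igf2, Dlk1, Prom1, Cd44, Igf2bp3 and Golm1. They were chosen by gene name from that list of 10 genes and found on the array through the RefSeq accession printed for each probe. Probes of 8 of the 10 genes were found this way, among 15645 genes named on the array. No probe was named for Igf2bp3 or Golm1 here, and they were not analysed. The 8 genes held 18 probes, of which 12 passed a filter on dim signal, and all 8 genes kept at least 1 probe.

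Liver total RNA of 6 male Sprague-Dawley (Crl:CD(SD)) rats, bought at 5 weeks of age and kept on a basal diet, was hybridised to Agilent 1-colour arrays, with a separate array for every rat. Corn oil alone was given to the vehicle group (n = 3). The treated group (n = 3) was given TBBC, the thiobis compound of tert-butyl-m-cresol, a phenolic antioxidant of rubber and plastics, at 300 mg/kg/day. Dosing lasted 28 days by the series text but 9 weeks by the treatment protocol. All vehicle arrays lay on 1 slide and in 1 scan, and all TBBC arrays on another, so slide, scan and treatment cannot be told apart.

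Fetal hepatocytes express a set of genes that are turned down or switched off after birth. The set includes the serum protein alpha-fetoprotein (Afp), the growth factor Igf2 with its imprinted neighbour H19, the membrane protein Dlk1 and the heparan sulfate proteoglycan Gpc3. Some of these genes return in liver tumours, and Ggt1, a cell-surface enzyme that cleaves glutathione, is a classical histochemical marker of preneoplastic foci in rat liver. In the adult organ Ggt1 and the surface protein Prom1 (CD133) are known from bile duct and progenitor cells, and Cd44, a receptor for hyaluronan, from lymphocytes and other non-parenchymal cells.

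With TBBC none of the 8 genes passed the test. Levels are log2 of the processed signal minus the 75th percentile of the same array, so that 0 is the signal of a probe at that percentile. Differences are TBBC minus vehicle, tested with limma over 29326 features (1 probe per named gene, and each unnamed probe alone) with Benjamini-Hochberg adjustment at 0.05. Over all features 902 passed (3.08%), 492 higher (1.68%) and 410 lower (1.40%). That split was 746 higher and 306 lower with median centring and 597 and 143 with scaling on spike-in controls. With any 1 of the 6 arrays left out, 104 to 365 features passed. Of the 8 marker genes 0 rose and 0 fell, and 2, Afp and Igf2, had an unadjusted p under 0.05, against 23.0% of all features. The groups did not overlap in 1 of the 8, Afp, against 31.1% of all features. The median difference of the 8 genes was -0.05, beside -0.06 for all features, with 4 genes above 0 and 4 below, against 57.6% of all features below 0. A difference of at least 0.5 in either direction was found in 5 of the 8 genes, against 17.4% of all features. Of these 5 genes Dlk1 passed the filter through the TBBC group alone, so the count is a description only.

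**Figure D1:**
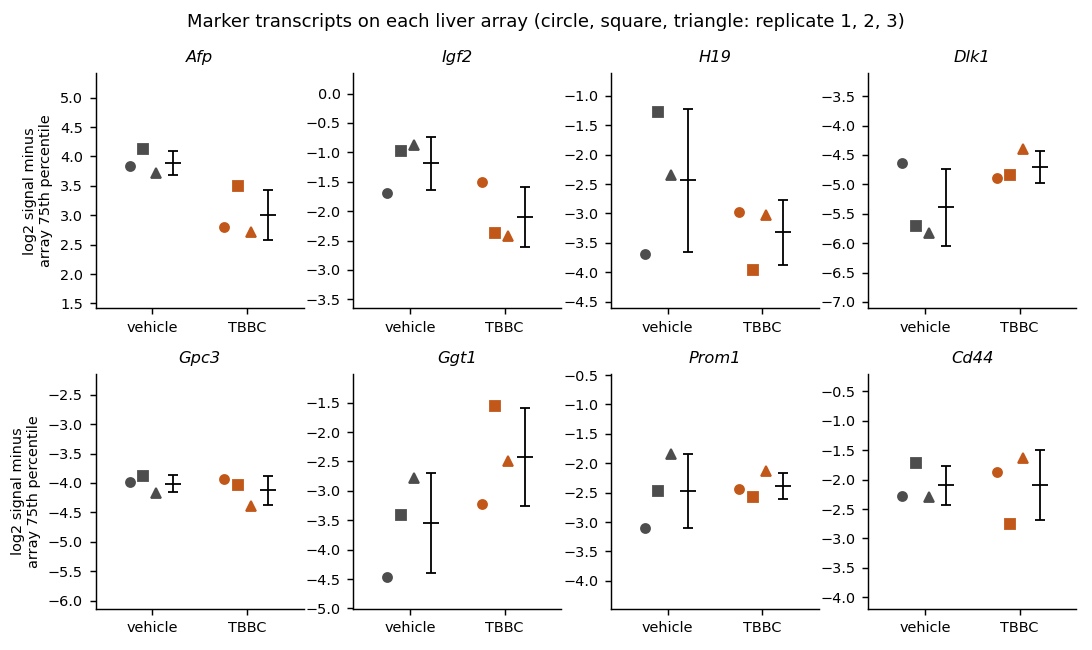
Log2 signal minus the 75th percentile of the array for the 8 marker genes, with 1 point per liver array (grey, vehicle; orange, TBBC; symbols give the replicate) and the mean with SD beside each group (n = 3). Each panel spans the same number of log2 units, and only in the panel of Afp do all TBBC arrays lie below all vehicle arrays.

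Afp, the fetal counterpart of albumin in serum, was well above background on all 6 arrays. The 3 vehicle arrays, in replicate order, gave processed signals of 8303, 8115 and 7834, and the TBBC arrays gave 4278, 7079 and 4173. TBBC replicates 1 and 3 lay well below the vehicle arrays, and TBBC replicate 2 lay close to them. After scaling the levels were 3.84, 4.12 and 3.71 with vehicle and 2.80, 3.50 and 2.71 with TBBC, so the groups did not overlap. The mean level was 3.89 ± 0.21 (SD, n = 3) with vehicle and 3.00 ± 0.43 (SD, n = 3) with TBBC. The difference was -0.89 ± 0.24 (SE; 95% interval -1.46 to -0.33), or 0.539 times the vehicle level, and it did not pass (limma adjusted p = 0.0994). Its adjusted p ranged from 0.0615 to 0.229 over the 19 settings run. In bulk liver, fewer cells expressing a gene and less RNA per cell cannot be told apart.

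The stretch of 250 bases before the start of Afp is shown because Afp was the only marker gene whose groups did not overlap. Beside it stands that of Alb, the adult serum albumin gene, which follows Afp on the chromosome with no annotated gene between them. Both sequences are from RefSeq, build GRCr8, minus strand, chr14:17875646-17875895 for Afp and chr14:17906980-17907229 for Alb. Capitals mark TATAAA, the core of the TATA box at which transcription is set up, searched on both strands.
Afp: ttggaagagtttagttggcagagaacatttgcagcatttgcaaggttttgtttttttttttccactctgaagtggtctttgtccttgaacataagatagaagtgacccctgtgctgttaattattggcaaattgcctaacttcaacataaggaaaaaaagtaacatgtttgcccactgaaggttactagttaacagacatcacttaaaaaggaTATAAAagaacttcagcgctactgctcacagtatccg
Alb: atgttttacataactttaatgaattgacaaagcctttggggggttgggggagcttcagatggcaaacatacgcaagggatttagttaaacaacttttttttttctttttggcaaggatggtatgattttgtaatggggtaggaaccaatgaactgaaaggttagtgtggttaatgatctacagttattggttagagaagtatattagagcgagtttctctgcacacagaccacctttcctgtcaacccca
The Afp window held 1 match to TATAAA, whose first base lay 37 bases before the start, and the Alb window held none. Of 33469 windows of 250 bases before annotated starts, 12.9% held TATAAA. Only this exact string was searched, so the result does not show whether Alb has a TATA box of another sequence.

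Transcripts of the factors that act on Afp did not pass the test either: of 14 tested repressors and activators, 0 rose and 0 fell, with a median difference of -0.18. Zbtb20 and Zhx2, repressors that lower Afp after birth, differed by 0.01 ± 0.12 (SE; adjusted p = 0.953) and -0.27 ± 0.14 (adjusted p = 0.289). The hepatocyte factor Hnf4a differed by -0.28 ± 0.20 (adjusted p = 0.425) and Cebpb by -0.08 ± 0.25 (adjusted p = 0.861). The member farthest from 0 was Foxa3, a forkhead factor of hepatocytes, at -1.48 ± 0.30 (adjusted p = 0.0535); it and the repressors were named after their values were seen. The neighbours of Afp in the albumin gene cluster, Alb and Afm, differed by -0.30 ± 0.11 (adjusted p = 0.173) and -0.11 ± 0.14 (adjusted p = 0.67).

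Hepatocyte markers stood beside Afp as follows. All 14 listed members, Alb and Ttr among them, were measured. Of these 1 fell, against 1.40% of all features, and none of the others passed. The median difference of the 14 genes was -0.23, with 9 of 14 below 0, against 57.6% of all features. An unadjusted limma p under 0.05 was found for 7 of 14, in both directions, against 23.0% of all features. This list too was chosen with earlier results of these data known, so its counts are a description only. The summed linear level of the list ran from 7640 to 9000 times the 75th percentile on the vehicle arrays. On the TBBC arrays it ran from 6710 to 7080. Such a sum weighs the brightest genes most. The member that fell was Ahsg, the plasma protein fetuin-A, by 0.83 ± 0.12 on the log2 scale (adjusted p = 0.0292). Its call was lost in 9 of 18 other settings, among them the removal of any single array (differences from -0.91 to -0.76). The part of these values in the difference of Afp was not tested.

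Igf2, the fetal growth factor, and H19, the non-coding RNA next to it in an imprinted domain, both had lower means with TBBC, and neither passed. Igf2 had a processed signal of 178, 237 and 324 on the vehicle arrays and 217, 121 and 118 on the TBBC arrays. TBBC replicate 1 lay above vehicle replicate 1, so the groups overlapped. The mean level of Igf2 was -1.19 ± 0.45 (SD, n = 3) with vehicle and -2.10 ± 0.52 with TBBC. The difference was -0.92 ± 0.32 (SE; 95% interval -1.69 to -0.14; limma adjusted p = 0.167).

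H19 had a processed signal of 44.7, 193 and 117 on the vehicle arrays and 77.9, 40.2 and 78.8 on the TBBC arrays. Vehicle replicate 1 lay inside the TBBC range, while vehicle replicates 2 and 3 lay above it. The vehicle animals spanned a 5.36-fold range, and the TBBC animals a 1.97-fold one. The difference of H19 was -0.88 ± 0.61 (SE; 95% interval -2.34 to 0.57; limma adjusted p = 0.414). Without vehicle replicate 1 it was -1.51 and without vehicle replicate 2 it was -0.30, neither past the threshold. Both genes had their lowest vehicle value on replicate 1, and H19 its lowest TBBC value on replicate 2.

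Other genes of the imprinted growth network and of the IGF system did not pass. Of 12 tested imprinted genes 0 rose and 0 fell (median difference 0.06), with the transporter Slc38a4 at 0.02 ± 0.13 (SE) and the G protein subunit Gnas at 0.13 ± 0.10. Of 12 tested IGF receptors and binding proteins 0 rose and 0 fell (median -0.22). Igf1, the postnatal growth factor of the liver, differed by -0.38 ± 0.19 (adjusted p = 0.29) and the binding protein Igfbp4 by -0.39 ± 0.14 (adjusted p = 0.167). Igf2r, which clears IGF2 from the cell surface and belongs to both lists, differed by 0.08 ± 0.13 (adjusted p = 0.733).

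Dlk1, a membrane protein related to Notch ligands that marks hepatoblasts, was measured close to background. The scanner software placed it above background on 1 of 3 vehicle arrays and on 3 of 3 TBBC arrays, and it passed the filter through the TBBC group alone. Its processed signal was 23.1, 8.92 and 10.5 with vehicle and 20.8, 21.9 and 30.4 with TBBC. Vehicle replicate 1, the vehicle array with a measured signal, lay inside the TBBC range. The difference was 0.69 ± 0.33 (SE; 95% interval -0.11 to 1.48; limma adjusted p = 0.269). With normexp background correction it was -0.10, and without vehicle replicate 1 it was 1.06. None of 13 tested Notch receptors, ligands and targets passed (median -0.24), with Notch1 at -0.51 ± 0.36 and Notch3 at -0.23 ± 0.11.

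Gpc3, a glypican that carries heparan sulfate on the cell surface and serves as a marker of liver cancer, had the narrowest interval of the 8 genes. Its retained probe was well above background on all 6 arrays, but its signal was low. The processed signal was 36.4, 31.5 and 33.3 with vehicle and 40.2, 38.2 and 30.2 with TBBC. After scaling the levels were -3.99, -3.88 and -4.17 with vehicle and -3.94, -4.03 and -4.40 with TBBC, so the groups overlapped, with TBBC replicate 3 below the vehicle range. The difference was -0.11 ± 0.16 (SE), and its 95% interval of -0.49 to 0.27 spans 0.712 to 1.21 times the vehicle level (limma adjusted p = 0.699). Its other 2 probes did not pass the filter and were each well above background on 3 or fewer of the 6 arrays. Their signals lay from 7.04 to 33.8 and their differences at 0.08 and 0.24, with the groups overlapping in both. Of 14 tested glypican and heparan sulfate genes 1 rose, against 1.68% of all features. This was the transmembrane proteoglycan Sdc1, higher by 0.86 ± 0.11 (adjusted p = 0.0217). The call of Sdc1 was lost in 8 of 18 other settings, among them the removal of any single array (differences from 0.81 to 0.92).

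**Figure D2:**
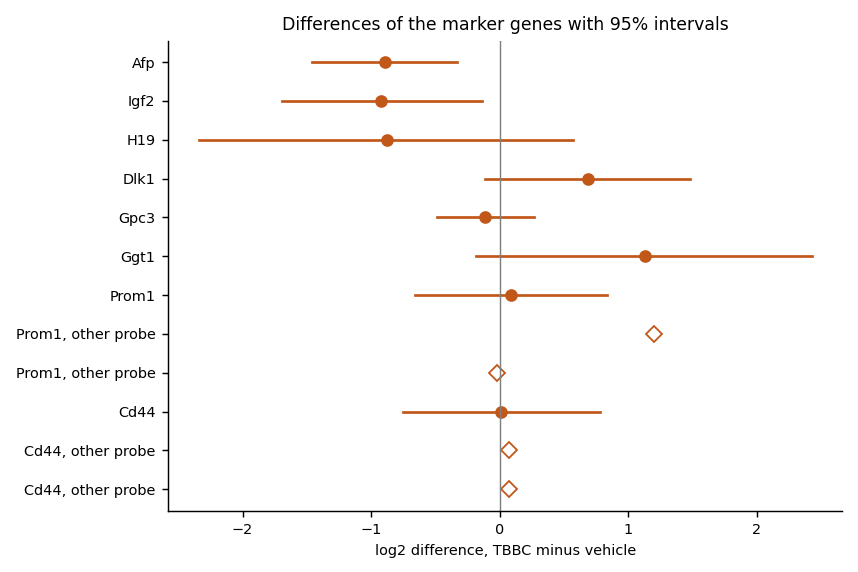
Log2 differences, TBBC minus vehicle, of the 12 retained probes of the 8 marker genes; filled circles are the probe that represents the gene, with its 95% interval, and open diamonds are other probes of the gene. The intervals of Afp and Igf2 lie below 0 and those of the other 6 genes include 0, and the other probes of Prom1 lie at -0.02 and 1.20.

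Ggt1, the enzyme that breaks down extracellular glutathione, had a higher mean with TBBC and a wide spread between animals. Its processed signal was 26.3, 43.7 and 87.3 on the vehicle arrays and 66.0, 213 and 113 on the TBBC arrays. TBBC replicate 1 lay below vehicle replicate 3, so the groups overlapped. The vehicle animals spanned a 3.21-fold range and the TBBC animals a 3.18-fold one. The mean level was -3.55 ± 0.85 (SD, n = 3) with vehicle and -2.42 ± 0.84 with TBBC. The difference was 1.13 ± 0.54 (SE), 2.18 times the vehicle level with a 95% interval of 0.884 to 5.39 times (limma adjusted p = 0.27). It was 0.56 with normexp background correction, 0.67 without vehicle replicate 1 and 0.69 without TBBC replicate 2, none past the threshold. Of 11 tested genes of glutathione breakdown and the GGT family, Ggt1 among them, 0 rose and 0 fell (median -0.12). Ggt5, the relative that lies next to Ggt1 on the chromosome apart from 1 annotated gene, was well above background on 2 of 3 vehicle and 3 of 3 TBBC arrays and differed by 0.66 ± 0.50 (adjusted p = 0.463), the 5-oxoprolinase Oplah by 0.47 ± 0.11 (adjusted p = 0.0775) and the aminopeptidase Lap3 by -0.19 ± 0.14 (adjusted p = 0.434).

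Prom1, the pentaspan membrane protein CD133 of progenitor and bile duct cells, was measured by 3 retained probes. The brightest gave a processed signal of 67.3, 84.2 and 165 with vehicle and 113, 106 and 145 with TBBC. All TBBC values lay inside the vehicle range. The difference was 0.09 ± 0.31 (SE; 95% interval -0.66 to 0.84; limma adjusted p = 0.879). A second probe gave -0.02 ± 0.30 (adjusted p = 0.974 with every probe tested on its own). The third gave 1.20 ± 0.77 (adjusted p = 0.386), from signals of 5.00, 12.9 and 53.1 with vehicle and 39.0, 32.0 and 50.4 with TBBC. Among the vehicle arrays that probe exceeded background on replicate 3 alone, so it was retained through the TBBC group, and its difference carries a wide error.

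Markers of bile duct cells varied with Ggt1 and Prom1 among the vehicle animals. Ggt1, Prom1, Krt19 (a bile duct keratin) and Cftr (a chloride channel of bile duct cells) each had their lowest vehicle value on replicate 1 and their highest on replicate 3. Krt19 had levels of -3.04, -2.76 and -1.58 with vehicle and -1.97, -2.34 and -1.74 with TBBC. Cftr had levels of -6.99, -5.22 and -3.50 with vehicle and -4.72, -3.47 and -4.04 with TBBC, but it was well above background on 1 of its 3 vehicle arrays, so the order of its lower vehicle values is not measured. Of the 12 tested members of the biliary and progenitor list 3 had this order, Krt18 being the third, as had 3 of the 8 marker genes, Ggt1, Prom1 and Igf2. Among all features it held for 13.8%. The order was read from Ggt1, Prom1, Krt19 and Cftr, which are themselves among the genes counted. The counts are 25.0% of the biliary list and 37.5% of the marker genes. They are therefore a description only, and no excess over the 13.8% can be read from them. The pattern was noticed after the values were seen, and its part in the differences of Ggt1 and Prom1 was not tested.

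**Figure D3:**
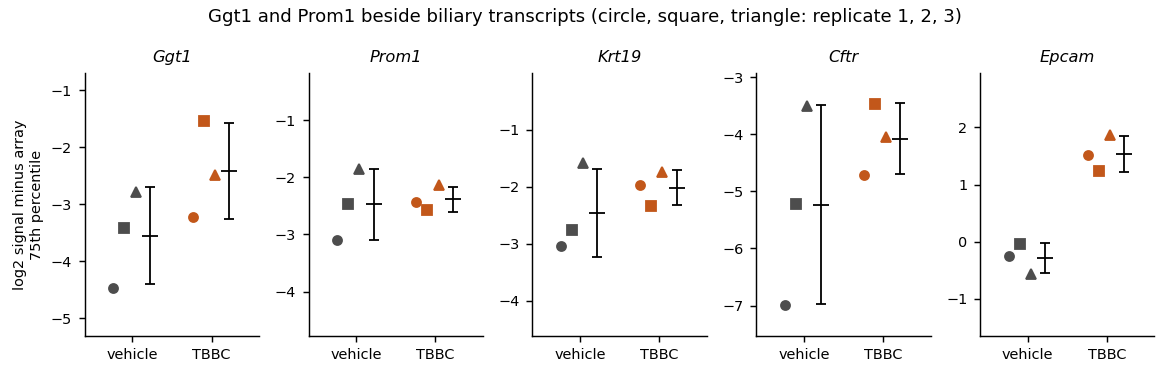
Log2 signal minus the 75th percentile of the array for Ggt1, Prom1 and 3 genes of the biliary list, with 1 point per array (grey, vehicle; orange, TBBC; symbols give the replicate) and mean with SD (n = 3). Vehicle replicate 1 is lowest and vehicle replicate 3 highest for Ggt1, Prom1, Krt19 and Cftr, but not for Epcam, whose 3 TBBC values all lie above its vehicle values.

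Over the whole biliary and progenitor list 2 of 12 tested genes rose and 0 fell, against 1.68% and 1.40% of all features. The median was 0.23. This list too was chosen with earlier results of these data known, so the count is a description only. Epcam, an epithelial adhesion protein of bile duct and progenitor cells, rose by 1.83 ± 0.21 (SE, n = 3 per group; adjusted p = 0.0147), from levels of -0.25, -0.05 and -0.56 to 1.52, 1.23 and 1.86. Krt8, a keratin of hepatocytes and bile duct cells, rose by 1.43 ± 0.15 (adjusted p = 0.0114). Among the removals of single arrays, the call of Epcam was lost without vehicle replicate 1 (1.84, adjusted p = 0.0637) and that of Krt8 without TBBC replicate 2 (1.41, adjusted p = 0.064). Krt19 differed by 0.44 ± 0.39 (adjusted p = 0.516) and Krt7, well above background on 2 of 3 TBBC arrays, by -0.33 ± 0.24 (adjusted p = 0.452). The summed level of the list was 234 to 276 on the vehicle arrays and 324 to 346 on the TBBC arrays. Most of that sum was Krt18, at levels of 7.64, 7.89 and 7.92 with vehicle and 8.27, 8.23 and 8.29 with TBBC. Krt18 differed by 0.45 ± 0.12 and did not pass (adjusted p = 0.0996). The sum therefore follows mainly Krt18 and is no measure of the list as a whole. Ncam1 was not well above background on any array.

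Cd44, the hyaluronan receptor, was measured by 3 retained probes that gave differences of 0.01, 0.07 and 0.07. The brightest had a processed signal of 119, 141 and 122 with vehicle and 169, 92.2 and 206 with TBBC. The TBBC arrays lay on both sides of the vehicle arrays, with replicate 2 low and replicate 3 high. The difference of that probe was 0.01 ± 0.32 (SE), and its 95% interval of -0.75 to 0.78 spans 0.593 to 1.72 times the vehicle level (limma adjusted p = 0.984). The other 3 probes of Cd44 were not well above background on any array. None of 15 tested hyaluronan and CD44 partner genes passed (median -0.05), with Rdx at -0.14 ± 0.13 and Mmp14 at -0.42 ± 0.13.

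Markers of the lymphocytes that carry Cd44 had a median difference of -0.43 over 13 tested T, B and NK cell genes, and 0 passed. Of these genes 12 lay below 0, against 57.6% of all features. The list was chosen with earlier results of these data known, so the count is a description only. The summed level of the list was 6.01 to 8.38 on the vehicle arrays and 4.07 to 5.80 on the TBBC arrays. Ltb, its brightest gene by mean, had levels of 1.99, 0.72 and 0.05 with vehicle and 0.06, 0.12 and 0.19 with TBBC. The sum weighs the brightest genes most and is no measure of the list as a whole. Cd3e and Cd2 were not well above background on any array, Ltb differed by -0.80 ± 0.45 and Nkg7 by -0.29 ± 0.15. Of 13 Kupffer and other myeloid genes 0 passed (median -0.02), and the summed level was 95.1 to 162 with vehicle and 95.7 to 171 with TBBC. The Kupffer cell lectin Clec4f differed by -0.02 ± 0.37 and Lyz2 by 0.07 ± 0.29. The part of these cell markers in the values of Cd44 was not tested.

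Most of the marker genes varied more between animals of a group than other probes did. The pooled within-group SD was 0.94 for H19, 0.84 for Ggt1, 0.50 for Dlk1, 0.49 for Igf2, 0.48 for Cd44, 0.47 for Prom1, 0.34 for Afp and 0.20 for Gpc3. The median over all features was 0.20, and H19 and Ggt1 lay at the 98.4th and 97.9th percentile. For 7 of the 8 genes, all but Gpc3, the SD was above the median of features within 0.5 log2 units of the same level. The 95% intervals were wide for Ggt1 (-0.18 to 2.43) and H19 (-2.34 to 0.57).

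**Figure D4:**
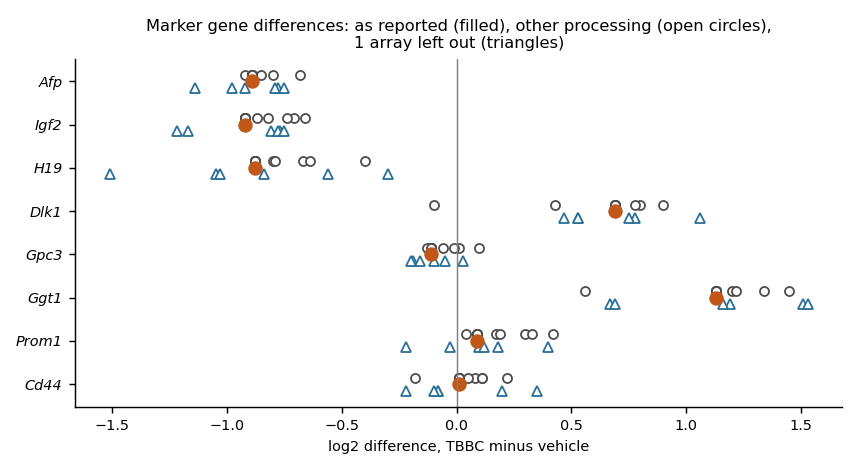
Log2 differences, TBBC minus vehicle, of the 8 marker genes as reported (filled circles), under other processing (open circles) and with 1 array left out (triangles). Afp, Igf2 and H19 stay below 0 and Ggt1 above 0 at every point, while H19 ranges from -1.51 to -0.30 and points of Dlk1, Gpc3, Prom1 and Cd44 fall on both sides of 0.

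Beyond the 10 listed genes, other fetal and oncofetal liver genes gave 0 risers and 0 that fell among 12 tested (median -0.02). Plac8 differed by 0.50 ± 0.25 (adjusted p = 0.29) and the glycolytic enzyme Aldoa by 0.24 ± 0.14 (adjusted p = 0.343). Igf2bp2, a relative of Igf2bp3 that is an RNA-binding protein of the fetal liver, differed by -0.12 ± 0.14 (adjusted p = 0.621). Igf2bp1, Hmga2, Trim71 and Mycn stayed at background on all 6 arrays. Of 14 Golgi genes related to Golm1 by location 0 passed (median -0.07), with the protease Furin at -0.23 ± 0.11 and the mannosidase Man2a1 at 0.24 ± 0.10.

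Enzyme markers of altered foci in rat liver were the list with most calls. Of its 19 measured genes 4 rose, against 1.68% of all features, and none of the others passed. The median was 0.69, beside -0.06 for all features. The list was chosen with earlier results of these data known, so these values are a description only. Abcc3, a glucuronide exporter, rose by 4.96 ± 0.21 (adjusted p = 0.00084). Ephx1, the microsomal epoxide hydrolase once known as a preneoplastic antigen, rose by 1.57 ± 0.14 (adjusted p = 0.00648). Aldh1a1, a retinal dehydrogenase, rose by 1.44 ± 0.14 (adjusted p = 0.00916) and the carbonic anhydrase Car2 by 1.52 ± 0.21 (adjusted p = 0.0261). The call of Aldh1a1 was lost without TBBC replicate 2 (1.39, adjusted p = 0.0536), and that of Car2 in 6 of 18 settings. Among these were the removals of vehicle replicate 2 (1.44), vehicle replicate 3 (1.40), TBBC replicate 1 (1.49) and TBBC replicate 2 (1.40).

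Gstp1, the placental glutathione transferase that is the most used marker of rat foci, did not pass the test. Its levels were 3.14, 3.40 and 3.76 with vehicle and 3.14, 3.11 and 2.94 with TBBC, all TBBC values at or below the vehicle range. The difference of Gstp1 was -0.37 ± 0.18 (SE; 95% interval -0.79 to 0.05; adjusted p = 0.268). Nqo1, a quinone reductase, had 3 TBBC values above all vehicle values and a difference of 2.57 ± 0.72 that did not pass (adjusted p = 0.113), with vehicle replicate 1 at -1.33 and the other vehicle arrays at 1.35 and 1.31. Akr1b8, an aldo-keto reductase, differed by 2.11 ± 0.42 (adjusted p = 0.0549). Aldh3a1, also used as a focus marker, differed by -0.10 ± 0.11 (adjusted p = 0.595). These 4 genes were named after their values were seen.

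**Figure D5:**
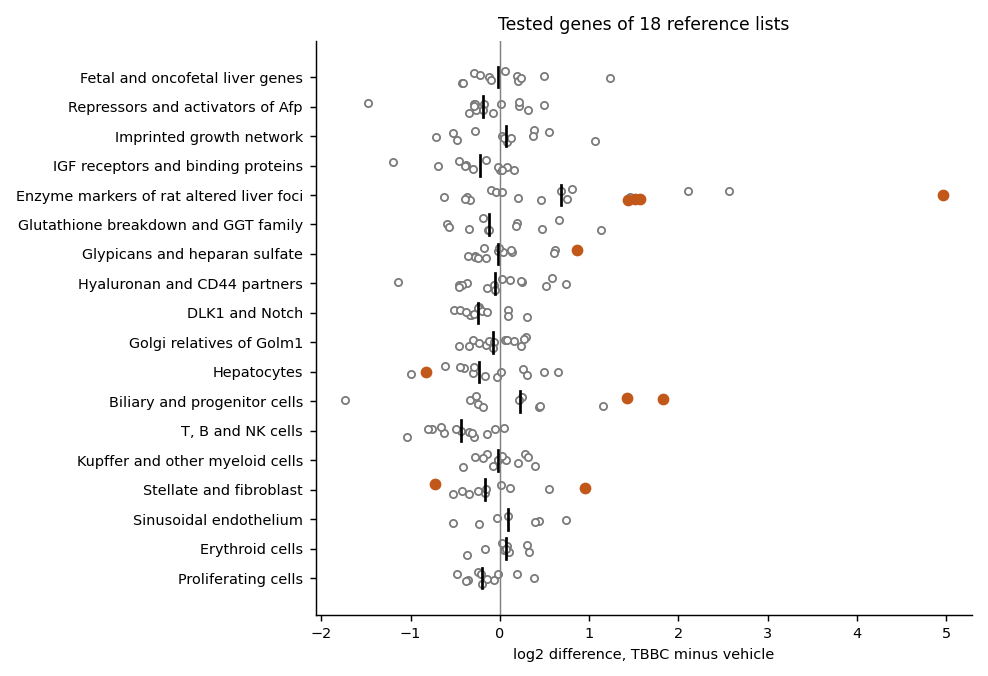
Log2 differences, TBBC minus vehicle, of every tested gene of 18 reference lists (circles), with the list median as a bar; filled circles passed limma at an adjusted p of 0.05. The filled circles are 8 genes above 0 and 2 below, and 4 of the 8 stand in the list of focus enzymes. The lists were chosen with earlier results of these data known.

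Other cell populations gave few calls. None of 11 tested proliferation genes passed (median -0.20), with Mki67 at -0.36 ± 0.19 and Pcna at -0.07 ± 0.14, and Aurkb was not well above background on any array. Among 11 stellate cell and fibroblast genes Rgs5 rose by 0.95 ± 0.12 (adjusted p = 0.0213). Pdgfrb fell by 0.73 ± 0.14 on the log2 scale (adjusted p = 0.0461). Over all features 1.68% rose and 1.40% fell. The call of Rgs5 was lost in 8 and that of Pdgfrb in 11 of 18 settings, both on removal of any single array (0.88 to 1.00 for Rgs5, -0.81 to -0.63 for Pdgfrb). None of 7 endothelial genes passed (median 0.09; Kdr -0.03 ± 0.22, Fcgr2b 0.44 ± 0.37), and none of 9 erythroid genes (median 0.07; Hbb 0.05 ± 0.21, Hba-a1 0.08 ± 0.24).

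For the lists in which limma called no gene, an unadjusted p under 0.05 was found for 1 of 12 fetal liver genes, 3 of 14 regulators of Afp, 3 of 12 imprinted genes and 1 of 12 IGF genes. It was found for 2 of 11 glutathione genes, 3 of 15 CD44 partners, 0 of 13 Notch genes and 2 of 14 Golgi genes. Among cell type lists it was found for 3 of 13 lymphocyte genes, 1 of 7 endothelial genes and none of the myeloid, erythroid or proliferation genes. The share over all features was 23.0%. The fetal liver gene counted here was Hk2, at 1.23 ± 0.32 (SE; limma adjusted p = 0.0975), named after its values were seen. Hk2 was well above background on 0 of 3 vehicle and 3 of 3 TBBC arrays. It thus passed the filter through the TBBC group alone, and its count is a description only.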

How the data were processed

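Per the file headers, the deposited scanner files hold spot intensity on a linear scale, extracted by the authors with Agilent Feature Extraction 10.7.1.1 (10.7 per the submitters' processing notes), and flags for background, saturation and outliers. The deposited value table also holds intensity: each column was the processed intensity times 1 constant, with column medians of 0.1012, 0.1077 and 0.1033 (vehicle) and 0.0977, 0.0972 and 0.0974 (TBBC); it was linear and not centred on genes. Each array held 61537 probes, of which 60.0% to 64.0% were well above background; the 75th percentile of intensity was 465.2 to 638.2, lowest on vehicle replicate 2. Correlations were 0.986 to 0.991 within groups and 0.975 to 0.984 between them. The number of arrays limits the precision.

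Outlier-flagged probes (25) were left out, and a probe was retained where every array of either group had it above background by the scanner's own flag. Probes were named through RefSeq accessions (28206 probes, assembly GRCr8; the array design is on rn4, so no probe coordinates are given), and a gene was represented by its brightest retained probe. Each probe's level was fitted by limma (version 3.58.1, R 4.3.3) in code tested on simulated data. The p-values set the difference between groups against the spread between animals within a group. Each group lay on 1 slide and in 1 scan, so they do not cover differences between slides or scans. Intervals use the moderated SE with 6.61 degrees of freedom. Alternatives were other scalings (quantile, median, spike-in), normexp with an offset of 50, other filters and probe rules, the deposited table, other limma options, a replicate block and each array left out. The marker genes, lists and alternatives were chosen with earlier results of these data known. Of each list, up to 4 genes past the threshold by size were named, or up to 2 with the highest mean level where none passed; other genes are marked as named later, and Krt19, Krt18, Krt7, Cftr, Igf2r, Ggt5, Alb, Afm and Igf2bp2 were named later too.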

Additional observations from a re-analysis of the deposited data

How the results depend on the processing

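None of the 8 marker genes passed the threshold in any of the 18 other settings (143 values, lowest adjusted p 0.0615, for Afp with normexp). Afp, Igf2, H19 and Ggt1 kept their sign throughout. Scaling on spike-in controls moved the median difference of all features from -0.06 to 0.15. Relative to that median Afp was at -0.83 under both. That equality was fixed in advance, because both scalings shift every feature of an array by the same amount. Of all features 902 passed, 1589 with normexp, 194 without a filter on dim probes and 104 to 365 with 1 array left out (137, 214 and 273 without vehicle replicate 1, 2 or 3, and 365, 104 and 239 without TBBC replicate 1, 2 or 3). With the replicate number as a block 211 passed and no marker gene did; arrays of the same number had correlations of deviations of 0.004, -0.022 and 0.144, so the numbers were not taken as pairs. Of the 10 list genes called, the block left Ahsg (0.0907), Car2 (0.0541), Epcam (0.0654), Krt8 (0.0557), Pdgfrb (0.116), Rgs5 (0.0656) and Sdc1 (0.0712) without a call (adjusted p in parentheses). The cause of these moves was not tested, except that removing the filter or an array changes the features or samples tested.

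Signs changed for values near 0. With quantile normalization Gpc3 was at 0.01. With spike-in scaling Gpc3 was at 0.10, Cebpb at 0.12, Clec4f at 0.19, Kdr at 0.17, Lap3 at 0.01, Pcna at 0.14 and Rdx at 0.07. With median centring Cebpb was at 0.01, Clec4f at 0.08, Kdr at 0.06 and Pcna at 0.03. With normexp Dlk1 was at -0.10, Cd44 at -0.18, Clec4f at 0.07, Hba-a1 at -0.05 and Pcna at 0.08. With array weights Clec4f was at 0.01 and Kdr at 0.09. With the mean of a gene's probes Gnas was at -0.02 and Hnf4a at 0.0033. Leaving out 1 array gave ranges of -0.20 to 0.03 for Gpc3, -0.22 to 0.40 for Prom1, -0.22 to 0.35 for Cd44, -0.25 to 0.14 for Cebpb, -0.33 to 0.29 for Clec4f, -0.19 to 0.24 for Hba-a1, -0.14 to 0.20 for Hbb, -0.22 to 0.19 for Kdr, -0.23 to 0.31 for Lyz2, -0.14 to 0.03 for Pcna and -0.08 to 0.09 for Slc38a4.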

Other observations

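The listed neighbours of the other marker genes on their chromosomes were compared after the values were seen. Slc1a2, a glutamate transporter that adjoins Cd44 with no annotated gene between them, differed by 1.52 ± 0.39 (SE; limma adjusted p = 0.0926). Hprt1, the nearest tested gene on 1 side of Gpc3, differed by 0.48 ± 0.13 (adjusted p = 0.0961), and Gpc4, a glypican on the other side, by -0.28 ± 0.13 (adjusted p = 0.247). Th, the nearest tested gene beyond Igf2, differed by -0.39 ± 0.11 (adjusted p = 0.103), and Mrpl23 beyond H19 by -0.12 ± 0.15 (adjusted p = 0.659). None of the neighbours passed the test.

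Among genes of the lists that had not passed, Onecut1, a hepatocyte and bile duct transcription factor, had levels of 4.56, 4.84 and 4.43 with vehicle and 3.11, 1.90 and 3.63 with TBBC, with no overlap and a difference of -1.73 ± 0.42 (adjusted p = 0.0845). Phlda2, an imprinted growth inhibitor, had levels of -1.84, -1.60 and -1.68 with vehicle and -0.88, -0.05 and -0.96 with TBBC, a difference of 1.07 ± 0.25 (adjusted p = 0.0764). Both were named after their values were seen, and neither passed.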
